A study of Homo sapiens with 4 samples.

Results

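The proteasome is the main protease of the cytosol and nucleus, and its subunits were followed here at the 3′ ends of their mRNAs in esophageal squamous cell carcinoma (ESCC) cells. The genes were all protein-coding genes of GENCODE 44 whose symbol is PSMA, PSMB, PSMC, PSMD, PSME, PSMF or PSMG followed by a number, 48 of 19383. Of these, 44 had at least 1 poly(A) site cluster (PAC) with its dominant site inside the gene span on the same strand, against 10376 of all protein-coding genes, and they held 61 of the 17627 PACs listed over the 4 libraries. PSMA8, PSMB11, PSMC1 and PSMD3 had none.

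The study asked whether lactate changes alternative polyadenylation, and it sequenced mRNA 3′ ends (PAS-seq) from the ESCC lines KYSE30 and TE-1, each with 20 mM l-lactate for 24 h or with PBS as the control. There was 1 library per line and treatment. The titles place the controls in KYSE30 and TE-1, while their cell line fields read KYSE32 and TE-3. The titles were followed here, and a control from another line cannot be told apart from an effect of l-lactate. Each library held 7174991 to 10393799 tags. Levels are TPM as listed, which here means tags scaled to the library total (RPM) with no division by length, so that 1 TPM stood for 7.17 to 10.4 tags. Since each mRNA gives tags only at its 3′ end, levels of different genes were set side by side without scaling by length. Whether the ends of different genes were captured and listed equally well was not tested, so rankings between genes concern listed tags. Of 7 squamous markers, SOX2 (168 to 219.9 TPM) and KRT6A (20.3 to 40.4 TPM) were listed only in KYSE30 cells and KRT17 (187 to 245 TPM) only in TE-1 cells, in the control and the treated library alike, and KRT5, KRT14, TP63 and DSG3 were not listed in the rows analysed. The leukocyte and endothelial markers PTPRC and PECAM1 were not listed, and the fibroblast marker COL1A1 reached 5.39 TPM at most, in TE-1 cells.

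The 20S core of the proteasome is a barrel in which rings of alpha subunits form the gate and rings of beta subunits hold the protease sites. The 19S cap binds ubiquitin chains, unfolds the substrate with its ring of ATPases and feeds it into the core. Interferon-inducible beta subunits can replace the constitutive catalytic ones, and other caps, an inhibitor and assembly chaperones complete the set.

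Proteasome genes were expressed well above most genes. The median of the 44 genes was 153 TPM, against 24.5 TPM over all protein-coding genes with a PAC. Their sum was 9939 TPM in control and 10487 TPM in l-lactate-treated KYSE30 cells, and 9810 and 10187 TPM in control and treated TE-1 cells, so the family took up nearly the same part of each library. Below, values within a line are given with the control first.

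The 7 alpha ring genes that were listed ranged widely, from PSMA6 with 24.6 and 27.6 TPM in KYSE30 and 17.1 and 17.8 TPM in TE-1 cells to PSMA7 with 713 and 766 TPM in KYSE30 and 1145 and 1202 TPM in TE-1 cells. PSMA7 had the highest listed level of the proteasome genes in TE-1 cells and PSMB1 in KYSE30 cells. The constitutive beta ring was more even, since all 7 genes had a mean over libraries between 271 and 698 TPM. Its lowest gene, PSMB5, encodes the subunit with chymotrypsin-like activity and the target of bortezomib, with 213 and 261 TPM in KYSE30 and 297 and 315 TPM in TE-1 cells. Its highest by the mean over libraries, PSMB1, had 817 and 837 TPM in KYSE30 and 542 and 598 TPM in TE-1 cells.

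In the ATPase ring, PSMC3 was highest in TE-1 cells (361 and 361 TPM in KYSE30, 557 and 536 TPM in TE-1 cells) and PSMC5 in KYSE30 cells (394 and 392 TPM, 333 and 322 TPM). The lowest of those listed was PSMC4 (32.99 and 35.4 TPM, 33.1 and 38.6 TPM). PSMC1 had no PAC in any library. GENCODE lists 13 pseudogenes of PSMC1, more than for any other proteasome gene, out of 44 pseudogenes of the family, and none of them had a PAC. A missing PAC does not show that a gene was not expressed, and why PSMC1 had none was not tested. Among the non-ATPase subunits of the 19S cap, PSMD4, the ubiquitin receptor also known as RPN10, was highest in TE-1 cells and by the mean over libraries, with 368 and 369 TPM in KYSE30 and 342 and 296 TPM in TE-1 cells. In KYSE30 cells PSMD2 stood above it. PSMD10, or gankyrin, a chaperone of cap assembly that is also known as an oncoprotein, was lowest with 10.5 and 10.04 TPM in KYSE30 and 12.2 and 14.5 TPM in TE-1 cells. Of the other 12, the mean ran from 43.98 TPM (PSMD8) to 331 TPM (PSMD2) where a PAC was listed.

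Filtering for a mean of at least 5 TPM left 43 proteasome genes of 8788 genes (PSMG3, mean 4.81 TPM, was left out). The lines were compared with limma, with treatment as a term, so the error was the spread of the l-lactate difference between the lines and not between replicate cultures. In bulk libraries the share of cells with an mRNA and its level per cell cannot be told apart. KYSE30 and TE-1 cells differed in 30 of the 43 genes at an adjusted p of 0.05. In all, 16 were higher in KYSE30 cells, against 36.3% of all genes tested, and 14 were higher in TE-1 cells, against 36.7%. The share called, 69.8%, was thus near the 73.0% found over all genes. Among the 14 were PSMB8 and PSMB9, which passed the filter only through TE-1 cells (means of 0 and 3.49 TPM in KYSE30 cells). Their calls are a description only. The median size of the difference was 0.35 on the log2 scale, against 0.63 over all genes tested. That background was not matched for level, so these medians do not show that the family was more stable between the lines.

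PSMB8, the inducible counterpart of PSMB5 in the immunoproteasome, was not listed in either KYSE30 library and had 122 and 157 TPM in TE-1 cells. A floor of 3 TPM was taken for a gene that is not listed, per library, since no PAC made of a single site was listed below 3.07 TPM. TE-1 cells were then at least 40.5-fold higher in the controls and at least 52.3-fold higher with l-lactate. PSMB9 is its neighbour in the MHC region and the counterpart of PSMB6. It had 3.91 and 3.07 TPM in KYSE30 and 9.52 and 17.1 TPM in TE-1 cells (log2 difference, KYSE30 minus TE-1, -1.63 with SE 0.27). Part of that signal in TE-1 cells came from an intronic PAC of 2.02 and 1.42 TPM that also lies in the lncRNA PSMB8-AS1 (chr6:32844078-32846500, plus strand). The 3′ UTR PAC alone had 7.50 and 15.7 TPM in TE-1 cells, also above both KYSE30 libraries, which had that PAC only. PSMB10, the counterpart of PSMB7, did not pass (23.3 and 16.7 TPM in KYSE30, 23.0 and 14.4 TPM in TE-1 cells; log2 difference 0.11, SE 0.15, adjusted p = 0.514). Its PAC also lies in an unnamed protein-coding gene of the same strand, as do those of PSMA1, PSMA2, PSMA6 and PSMD9, and tags were not split between them.

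Assembly chaperones moved in both directions. PSMG1 and PSMG2 encode the partners of a heterodimer that guides alpha ring assembly. PSMG1 had 58.3 and 63.1 TPM in KYSE30 and 216 and 206 TPM in TE-1 cells (-1.78, SE 0.08, adjusted p = 2.9e-07). PSMG2 went the other way, with 180.3 and 174 TPM in KYSE30 and 68.0 and 75.1 TPM in TE-1 cells (1.30, SE 0.08, adjusted p = 1.87e-06). PSMG4, which pairs with PSMG3, had 42.7 and 40 TPM in KYSE30 and 86.8 and 59.3 TPM in TE-1 cells (-0.78, SE 0.12, adjusted p = 0.000475). For each of these 3 genes the libraries of the lines did not overlap, but the share of all genes for which this held was not counted. The test called 73.0% of all genes between the lines, so this is a description only. PSMG3 had 2.83 and 3.90 TPM in KYSE30 cells and 6.25 and 6.26 TPM in TE-1 cells, too low for the test.

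PSMF1 encodes PI31, named as an inhibitor of the 20S core, and had 226 and 229.5 TPM in KYSE30 and 104 and 93.8 TPM in TE-1 cells (1.20, SE 0.08, adjusted p = 1.91e-06). PSME4, the cap PA200 that acts without ubiquitin, had 10.9 and 11.2 TPM in KYSE30 and 29.9 and 28.9 TPM in TE-1 cells (-1.34, SE 0.14, adjusted p = 4.62e-05). PSME3, or PA28 gamma, a nuclear cap and the highest of the activators, was also higher in TE-1 cells, with 151 and 156 TPM in KYSE30 and 227 and 212 TPM in TE-1 cells (-0.51, SE 0.07, adjusted p = 0.000264). PSME1 and PSME2, which form the interferon-inducible cap PA28, did not pass (adjusted p = 0.080 and 0.266).

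The remaining large differences lay in the core and cap. PSMA5 was higher in TE-1 cells, with 32.6 and 37.1 TPM in KYSE30 and 77.0 and 76.6 TPM in TE-1 cells (-1.12, SE 0.10, adjusted p = 1.55e-05), and so was PSMA7 (-0.67, SE 0.06, adjusted p = 1.12e-05). PSMA2 was higher in KYSE30 cells, with 157 and 167 TPM against 90.9 and 118 TPM (0.64, SE 0.09, adjusted p = 0.00022). PSMD2, a large scaffold subunit of the cap base, had 425 and 459 TPM in KYSE30 and 209 and 229 TPM in TE-1 cells (1.01, SE 0.06, adjusted p = 1.62e-06). PSMD13, a lid subunit, had 213 and 235 TPM in KYSE30 and 138 and 143 TPM in TE-1 cells (0.67, SE 0.07, adjusted p = 4.36e-05). By role, 4 alpha ring genes were higher in KYSE30 and 2 in TE-1 cells of 7, the beta ring had 2 and 2 of 7, the ATPase ring 2 and 1 of 5, and the non-ATPase cap subunits 6 and 3 of 13. Over all genes 36.3% were higher in KYSE30 and 36.7% in TE-1 cells, and with 5 to 13 genes per role these counts are a description only.

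Of 23 other genes of the pathway (further cap subunits, ubiquitin shuttles, deubiquitinases and regulators), 22 were tested, and 9 (40.9%) were higher in KYSE30 and 11 (50%) in TE-1 cells, against 36.3% and 36.7% of all genes. AKIRIN2, which carries proteasomes into the nucleus, had 54.9 and 59.5 TPM in KYSE30 and 18.6 and 22.6 TPM in TE-1 cells (1.44, SE 0.12, adjusted p = 7.02e-06). Of the deubiquitinases of the cap, USP14 and UCHL5 differed in opposite directions. USP14 had 149 and 177 TPM in KYSE30 and 86.6 and 102 TPM in TE-1 cells (0.78, SE 0.08, adjusted p = 2.24e-05), whereas UCHL5 had 33.5 and 45.0 TPM in KYSE30 and 94.7 and 102 TPM in TE-1 cells (-1.32, SE 0.11, adjusted p = 7.05e-06). NFE2L1, the transcription factor that raises proteasome genes when the proteasome is inhibited, had 51.8 and 46.6 TPM in KYSE30 and 51.2 and 52.8 TPM in TE-1 cells and did not pass (adjusted p = 0.507).

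With l-lactate, no proteasome gene passed the adjusted test over both lines (0 of 43), while limma called 0.0455% of all genes higher and 0.0228% lower. At an unadjusted p under 0.05 there were 7 of the 43 proteasome genes, against 9.59% of all genes. Those with positive differences were PSMA2 (log2 difference 0.23, SE 0.09), PSMA4 (0.17, SE 0.06), PSMB5 (0.19, SE 0.07), PSMD5 (0.26, SE 0.08) and PSMD11 (0.21, SE 0.07), with adjusted p from 0.441 to 0.497. The other 2 were PSMB10 (-0.55, SE 0.15, adjusted p = 0.414) and PSMG4 (-0.32, SE 0.12, adjusted p = 0.493). This count of 7 was not stable. It was 5 under median ratio or trimmed mean scaling, 4 of 44 without the filter and 4 with PACs of at least 5 TPM. The shares over all genes under those settings are not given here. None of the 22 pathway genes passed, and 3 of them had an unadjusted p under 0.05.

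The log2 difference was positive in 31 of the 43 genes, or 72.1%, against 55.6% of all genes tested, with a median of 0.09 against 0.02. Over the lines, all 7 alpha ring genes were positive and all 4 activators negative, also under both rescalings named below. All 7 beta ring genes were positive as deposited but 5 of 7 after rescaling. Among the activators, PSME3 (-0.03, SE 0.07) and PSME4 (-0.009, SE 0.14) lay closer to 0 than their SE. With 4 or 7 genes per role, these signs are a description only. Line by line, 6 of the 7 alpha ring genes were higher in both lines, whereas only 1 of the 4 activators, PSME2, was lower in both, and 2 of the 4 after rescaling. In both lines alike, 22 genes (51.2%) were higher with l-lactate, against 30.7% of all genes. Those lower in both lines were PSMB10, PSMC5, PSME2 and PSMG4 (9.30%, against 21.5% of all genes). Scaling the libraries by their median ratio or trimmed mean left 19 of 43 (44.2%) higher in both lines, against 25.97% and 25.4% of all genes, and 27 of 43 positive over the lines. It raised the number lower in both lines to 7 (16.3%) and 8 (18.6%), against 26.3% and 27.04% of all genes. All these signs concern differences of which none passed the test.

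Within a line the ratio of 2 libraries has a counting error but no replicate error. The exact interval of the ratio lay above 1 for 14 of 43 genes in KYSE30 (background 12.9% of all genes) and 16 in TE-1 cells (18.9%). It lay below 1 for 3 in KYSE30 (11.3%) and 7 in TE-1 cells (11.5%). Intervals narrow with the number of tags, and proteasome genes had a median of 153 TPM against 24.5 TPM over all genes. The background is therefore not matched for level, and these counts do not measure a response of the family. The highest of these in KYSE30 cells was PSMB5, at 1.23 (95% interval 1.15 to 1.31), and its ratio in TE-1 cells was 1.06 (1.00 to 1.12). PSMD5, an assembly chaperone of the cap base, had 116 and 135 TPM in KYSE30 and 120.2 and 149 TPM in TE-1 cells, ratios of 1.16 (1.06 to 1.27) and 1.24 (1.14 to 1.34). PSMD11, a lid subunit, had 202 and 229 TPM in KYSE30 and 188 and 221 TPM in TE-1 cells, ratios of 1.14 (1.06 to 1.22) and 1.18 (1.10 to 1.26). PSMA4 of the alpha ring had 333 and 366 TPM in KYSE30 and 334 and 382 TPM in TE-1 cells, ratios of 1.10 (1.04 to 1.16) and 1.14 (1.09 to 1.20).

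The interferon-inducible members, PSMB8, PSMB9, PSMB10, PSME1 and PSME2, did not share a direction, and were grouped here after their values were seen. The 3 genes whose interval lay below 1 in KYSE30 cells all belonged to them. PSMB10 had a ratio of 0.72 (0.56 to 0.91) in KYSE30 and of 0.63 (0.50 to 0.78) in TE-1 cells. PSME1 went from 129 to 105 TPM in KYSE30 cells (0.82, 0.74 to 0.90) and stood at 101 and 101 TPM in TE-1 cells (1.00, 0.92 to 1.10). PSME2 had 149 and 124 TPM in KYSE30 cells (0.83, 0.76 to 0.91) and 129 and 124 TPM in TE-1 cells (0.96, 0.88 to 1.04). In contrast, PSMB8 in TE-1 cells was 1.29 times the control (1.19 to 1.39) and PSMB9 1.80 times (1.38 to 2.34), or 2.09 times (1.57 to 2.80) from its 3′ UTR PAC alone, on 78 and 133 tags. In KYSE30 cells PSMB9 rested on 29 and 22 tags, and its ratio of 0.79 (0.43 to 1.41) did not exclude 1.

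A difference of 1.5-fold was reached by no proteasome gene in KYSE30 cells (background 2.0% of all genes higher and 1.97% lower). In TE-1 cells 1 gene was higher, PSMB9 (2.54%), and 1 lower, PSMB10 (1.47%). PSMG4 came next, with a ratio of 0.68 (0.61 to 0.76) in TE-1 and 0.94 (0.80 to 1.10) in KYSE30 cells.

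The letters GAAANNGAAA occur in the core of interferon-stimulated response elements and were searched for after the ratios were known. In RefSeq promoters (GRCh38.p14, 250 bases before to 50 after the start, both strands) they were found in 6 of 42 proteasome genes matched (14.3%, Wilson 95% interval 6.72 to 27.8%) and in 3.65% of all 27305 promoters. These promoters, 1 per symbol, outnumber the 19383 protein-coding genes used elsewhere, so the background was not the same. Of the 48 proteasome genes, those without a matched promoter were not searched. All 6 matches are shown to let the letters be compared, and capitals mark the match.
PSMB10 (chr16:67936862-67936871, minus strand): gtaaaggcGAAAGCGAAAgcaggaag
PSME1 (chr14:24136199-24136208, minus strand): cgcgaaggGAAAGCGAAAgcggtagg
PSME2 (chr14:24146629-24146638, minus strand): tggggagtGAAAGCGAAAgcccgggc
PSMG4 (chr6:3258914-3258923, plus strand): ccggggccGAAAGCGAAAgcgcgctc
PSMA4 (chr15:78540165-78540174, plus strand): agtgaagaGAAAATGAAAggagagcg
PSMB4 (chr1:151399505-151399514, plus strand): gtctacagGAAAAAGAAAgaaatgac
The first 4 read GAAAGCGAAA followed by gc, and those of PSMA4 and PSMB4 read otherwise. This longer word was seen after the fact, and its share over all promoters was not counted. With l-lactate PSMA4 was higher in both lines, as given above, and PSMB4 had ratios of 1.05 (1.01 to 1.10) in KYSE30 and 0.98 (0.94 to 1.02) in TE-1 cells. PSMB9, higher with l-lactate in TE-1 cells, and PSMC5, lower in both lines, were not among the 6 genes. A link of the letters with the direction was not tested. TGACNNNGC, an antioxidant response element of the kind that NFE2L1 binds, was found in 13 of 42 proteasome promoters (31.0%, 19.1 to 46.0%) and in 13.6% of all promoters, among them PSMB3, PSMD1, PSMD12 and PSMG1. These matches describe letters and not binding.

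The 3′ UTRs of proteasome mRNAs were short. From the stop codon to the dominant site of the main PAC, the median was 143 to 162 nt in the 4 libraries, against 758 to 779 nt over all protein-coding genes. In TE-1 control cells 38 of 44 proteasome genes (86.4%) had less than 400 nt, against 31.2% of 8833 genes. In KYSE30 control cells PSME2 (47 nt), PSMB9 (53 nt), PSMC5 (54 nt) and PSMB10 (55 nt) had the shortest, and PSME3 (1665 nt), PSMD11 (1628 nt) and PSMD5 (1556 nt) the longest. The main PAC of PSMD7 ended 557 nt past the stop codon in both KYSE30 libraries but 54 nt past it in both TE-1 libraries, among the shortest there.

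AAUAAA stood within 50 nt upstream of the dominant site in 78.7 to 80.3% of proteasome PACs by library, against 66.7 to 67.6% over all protein-coding genes. With AUUAAA, its commonest variant, the shares were 93.2 to 93.4% and 83.5 to 84.3%. In KYSE30 cells the interval of that proteasome share, 83.8 to 97.3%, also reached the share of all genes. UGUA, the motif bound by NUDT21, occurred within 100 nt upstream in 47.5 to 49.2% of proteasome PACs and 57.7 to 58.2% of all. The intervals of the proteasome share, 36.8 to 61.6% in KYSE30 and 35.5 to 59.8% in TE-1 cells, held the share of all genes. No proteasome site had a stretch of A downstream that could prime the reaction from inside a transcript (0 of 61, which by the Wilson interval allows up to 5.92%). The sites lay in annotated 3′ UTRs except for the first PAC of PSMA5 and of PSMB9, both intronic.

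In each library 32 proteasome genes used 1 PAC only, 74.4% in KYSE30 and 72.7% in TE-1 cells, against 68.9 to 70.1% over all genes. Dominant sites rarely moved, in proteasome genes as over all genes. In KYSE30 cells, 0 of 54 PACs above 5 TPM moved their dominant site past 24 nt (background 1.43%), and 50 kept the same nucleotide. In TE-1 cells 1 of 56 moved (1.2%), and between the controls 1 of 52 (2.07%), which was the same PAC of PSMD12, a lid subunit. Distal usage was the share of tags in a gene's most distal 3′ UTR PAC, among PACs above 5 TPM in either library compared. The last listed PAC of a gene was thus not always the one used. Distal usage moved by at least 10 percentage points with l-lactate in 0 of 9 genes in KYSE30 (background 9.87%) and 0 of 10 in TE-1 cells (11.8%). Between the controls it differed by that much in 3 of 10 (34.9%), namely PSMD7, PSMD12 and PSME4.

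PSMD7, the partner of the deubiquitinase PSMD14 in the lid, has PACs ending 54 and 557 nt past the stop codon, in its last exon 7. The distal one took 66.1% of tags (Wilson 95% interval 63.8 to 68.3%) in control and 60.9% (58.5 to 63.1%) in treated KYSE30 cells. In TE-1 cells it took 48.3% (46.5 to 50.1%) and 47.5% (45.5 to 49.5%). KYSE30 libraries were thus both above TE-1 libraries, and the gap of 17.7 percentage points between controls exceeded the counting error. Levels of the distal PAC were alike (151 and 145 TPM in KYSE30, 139 and 137 TPM in TE-1 cells), and those of the proximal one were not (77.3 and 93.5 TPM against 149 and 152 TPM). Both sites carry AUUAAA and not AAUAAA.

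The first PAC of PSMD12 spans several sites between chr17:67340415-67340925 on the minus strand. In 3 libraries its dominant site was at 67340511, with 32.7 to 35.8% of the TPM of the PAC. In TE-1 control cells it was 275 nt nearer to the stop codon, at 67340786, with 30.9%. No site of this PAC held most of its tags. The distal PAC took 31.7% (28.8 to 34.6%) and 27.8% (25.1 to 30.6%) in KYSE30 and 21.0% (18.7 to 23.4%) and 24.2% (21.6 to 26.9%) in TE-1 cells. The line difference of the controls was therefore larger than that of the treated libraries, whose intervals overlapped.

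The 30 nt that end at each dominant site are shown for these genes and for PSMB2 and PSMB5, with the signal in capitals (GRCh38.p14, DNA letters, read along the mRNA).
PSMD7 proximal (chr16:74305755-74305784, plus strand): ttaatttgtaaATTAAAatcttacaaacta
PSMD7 distal (chr16:74306258-74306287, plus strand): caaagatacaATTAAAtggcttgattttta
PSMD12 first PAC, TE-1 control (chr17:67340786-67340815, minus strand): aaattggaagtcATTAAAaaaagactgtta
PSMD12 first PAC, other libraries (chr17:67340511-67340540, minus strand): aacaaacatattccaatAATAAAagcagta
PSMD12 distal (chr17:67337916-67337945, minus strand): tggagAATAAActcatactttaaaagatca
PSMB2 PAC 1 (chr1:35603138-35603167, minus strand): cagAATAAAggtgactatggatataattga
PSMB2 PAC 2 (chr1:35601820-35601849, minus strand): taaagctATTAAAacagtggttcttgacca
PSMB2 PAC 4 (chr1:35599543-35599572, minus strand): ttacacctCATAAAgcctgtgttccaacta
PSMB5 (chr14:23025857-23025886, minus strand): ggatgttaacattacactactcactactca
PSMB5 had neither the main signals nor 1 of the 9 rarer variants searched within 50 nt, at its only site and in all 4 libraries. The first PAC of PSME3 had none either, PAC 4 of PSMB2 had CAUAAA, and the first of PSMF1, which held most of its tags, had AAUACA.

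PSMB2, a constitutive beta subunit, had 4 PACs, 132, 1450, 2790 and 3727 nt past the stop codon in exon 6, the most of any proteasome gene. The first took 56.9% (55.4 to 58.3%) and 55.2% (53.8 to 56.7%) in KYSE30 cells, and 63.9% (62.5 to 65.4%) and 56.7% (55.0 to 58.3%) in TE-1 cells. The second took 40.3% (38.8 to 41.7%) and 41.9% (40.5 to 43.3%) in KYSE30 and 31.3% (29.9 to 32.7%) and 38.7% (37.1 to 40.3%) in TE-1 cells. TE-1 control cells thus stood apart from the other 3 libraries. In TE-1 cells the second PAC had 130 and 159 TPM and the first 265 and 232 TPM, with a sum of 414 and 410.1 TPM, so that the level of the gene was nearly the same while the shares were not. The most distal PAC held 2.04 to 4.03% in every library, so this difference lay between the proximal PACs.

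The first PAC of PSME3, 158 nt past the stop codon, went the other way from that of PSMB2. How many genes of the series changed by as much was not counted for either pattern. In PSME3 this PAC took 12.8% (11.0 to 14.9%) and 18.0% (15.8 to 20.3%) in KYSE30 and 15.3% (13.9 to 16.8%) and 19.4% (17.7 to 21.3%) in TE-1 cells. It was higher with l-lactate in both lines, with intervals that did not overlap. PSMF1 kept 75.6 to 81.4% in its first PAC, and PSMA2 79.6 to 82.1%. In PSMD11 the second of 3 PACs was the main one. The distal PAC of PSME4 took 39.5% (29.6 to 50.4%) and 42.5% (32.3 to 53.4%) in KYSE30 and 28.6% (23.9 to 33.9%) and 35.5% (29.8 to 41.7%) in TE-1 cells, with intervals that overlapped between the controls. PSMC2 and PSMD9 had a distal PAC with 1.99 to 4.99% and 6.79 to 9.12% of tags. The intronic PAC of PSMA5 took 5.37% (3.17 to 8.97%) and 6.02% (3.74 to 9.55%) in KYSE30 and 14.3% (11.998 to 16.8%) and 10.02% (7.94 to 12.6%) in TE-1 cells.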

How the data were processed

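The authors trimmed PAS-seq reads, aligned them with HISAT2, called PACs with CAGEr, excluded sites under TPM 1 and single-site PACs under TPM 3 and joined nearby PACs. The deposited TPM are RPM values per PAC, and build GRCh38.p14 is named in the submitters' processing notes. PACs were given to genes of GENCODE 44 whose same-strand span held the dominant site (650 readthrough genes left out), and TPM were summed. Whole tags (within 0.1) were recovered from TPM steps and served for counting intervals (95%, exact for ratios, Wilson for shares), which cover counting error only. Log2(TPM + 1) was fitted with limma 3.58.1 (R 4.3.3, trend, empirical Bayes, tested on simulated data) over all genes with line and treatment as terms and Benjamini-Hochberg adjustment. The residual degree of freedom per gene was 1, and nothing states that libraries came from separate cultures. Fold changes on this scale understate low genes. The members and lists were chosen with earlier results of these data known. Genes named were the highest and lowest per role and those with the largest differences, a 1.5-fold change, a site shift or several PACs. Others were picked after their values were seen. Positions are 1-based.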

Additional observations from a re-analysis of the deposited data

Results flagged for a closer look

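Signal of 2 proteasome genes lay outside the gene span and entered no comparison. The PAC of PSMD3, a cap subunit, had its dominant site 1 nt past the annotated gene end (chromosome 17, position 39997960), with 133 and 144.251 TPM in control and treated KYSE30 cells and 109.9 and 112 TPM in TE-1 cells. PSMD3 was thus not counted among genes with a PAC only because of where the annotation ends. A second PAC of PSMB1 lay 573 nt past its end, with 5.52 and 5.575 TPM in KYSE30 and 2.60 and 2.83 TPM in TE-1 cells.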

How the results depend on the processing

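The number of proteasome genes lower with l-lactate in both lines, 4 as deposited, was 7 under median ratio and 8 under trimmed mean scaling. Counts of proteasome genes called between the lines and with l-lactate stayed within 1.5 times under each pseudocount, filter, scaling and span tried. PSMD4 no longer passed between the lines without the filter, under both scalings, with PACs of at least 5 TPM and without the treatment term (adjusted p 0.0513 to 0.0709), and without that term PSMA1 (0.0593) and PSMB7 (0.0862) did not pass either. At the lower fold tried, 1 gene was lower in KYSE30 cells, and 3 were higher and 2 lower in TE-1 cells. At a fold of 2, 0 were higher and 0 lower in TE-1 cells. A pseudocount of 5 left 0 lower in TE-1 cells and median ratio scaling 2. In KYSE30 cells 4 dominant sites moved by any length and 1 PAC by its quantile midpoint past 24 nt, and between the controls 2 PACs did by midpoint. A change of 5 percentage points in distal usage was met by 1 gene in KYSE30 and 1 in TE-1 cells. Counts at these other folds, shift lengths and distal changes are given without the share over all genes. They describe only how the count depends on the setting. A count test on recovered tags was not run. Leaving out a library was not possible, since no residual degrees of freedom would be left. The l-lactate fit had the line as a term and so set each treated library against the control of its own line. In KYSE30 cells PSMG3 (21 and 28 tags), PSMB9 (29 and 22) and the intronic PAC of PSMA5 (13 and 16) rested on few tags.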
